A study of Mus musculus with 4 samples.

Results

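Cells of the embryonic mouse cerebellum that carried S phase transcripts together with transcripts of the granule cell lineage were taken from single-cell RNA sequencing of sorted Atoh1-lineage cells at E14.5, a stage of mouse gestation. A cell was a member when 8 S phase genes (Hist1h1b, Hist1h2ap, Hist1h2ae, Hist1h1a, Esco2, Mcm5, Mcm6 and Pcna) gave at least 5 unique molecular identifiers (UMIs, counts of captured RNA molecules) in sum. Its counts of 6 G2/M genes (Ube2c, Cdc20, Ccnb1, Ccnb2, Cenpa and Cenpf) had to sum to at most 2, Pax6, Atoh1 and Barhl1 had to give at least 1 UMI together, and Meis2 could not exceed Pax6. Of 12546 cells kept after filtering, 614 met this rule (4.89%), and they are called S phase precursors here. The name rests on transcript counts alone, DNA content was not analysed here, and the rule does not separate late G1 from S phase. They were 157 cells in control library 1, 45 in control library 2, 114 in CKO library 1 and 298 in CKO library 2. Because measured values chose the members, their levels against other cells are given as a description with no test.

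Both genotypes carried Atoh1-Cre/+ and the Cre-dependent tdTomato reporter R26LSL-tdT/+. The conditional knockout (CKO) had in addition En1lox/lox and En2lox/lox, the floxed alleles of the engrailed homeobox genes. The same Cre therefore labelled the cells for sorting and deleted the floxed genes, and no group lacked Cre. Each library held tdTomato-positive cells from animals that had been pooled, with 2 libraries per genotype, so that a p-value measures only the spread between pooled libraries, which may be partly technical.

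Granule cell precursors arise from the rhombic lip, express Atoh1 and divide in the external granular layer before they become the granule neurons of the cerebellar cortex. On entering S phase a cell loads and fires replication origins with the Mcm2 to Mcm7 helicase, copies DNA with polymerases held by the Pcna clamp, raises its supply of deoxynucleotides and makes histones for the new chromatin. Genes for these steps are commonly switched on together by E2F transcription factors at the end of G1, whereas replication-dependent histone transcripts build up during DNA synthesis itself.

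The 250 bases before the start of Mcm6 and Mcm5 are shown because these helicase genes, with Pcna, supplied most of the S phase counts. They come from RefSeq (GRCm38.p6) and are written 5′ to 3′ in the direction of transcription. Mcm6 lies on the minus strand at chr1:128359706-128359955 and Mcm5 on the plus strand at chr8:75109259-75109508. Capitals mark every match, on either strand, to the E2F words TTTCCCGC, TTTCGCGC, TTTGCCGC and TTTGGCGC.
Mcm6: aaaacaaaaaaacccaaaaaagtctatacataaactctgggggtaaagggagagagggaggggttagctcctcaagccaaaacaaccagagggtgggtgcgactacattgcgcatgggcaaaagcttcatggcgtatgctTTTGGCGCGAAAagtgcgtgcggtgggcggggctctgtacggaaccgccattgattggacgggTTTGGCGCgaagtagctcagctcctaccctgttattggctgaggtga
Mcm5: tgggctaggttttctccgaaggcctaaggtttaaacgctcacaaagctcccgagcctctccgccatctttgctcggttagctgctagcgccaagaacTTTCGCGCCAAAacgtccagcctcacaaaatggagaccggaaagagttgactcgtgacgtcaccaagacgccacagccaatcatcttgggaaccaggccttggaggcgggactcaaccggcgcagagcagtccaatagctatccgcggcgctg

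Mcm6 held 3 matches, beginning 110, 106 and 47 bases before the start, of which the first 2 overlap. Mcm5 held 2 overlapping matches, beginning 153 and 149 bases before the start. The Pcna window held none of these words, but its end lies inside the annotated transcript, so fewer of its bases are upstream than for Mcm6 and Mcm5. Hist1h1b, Hist1h2ap, Hist1h2ae, Hist1h1a and Esco2 were not matched to a window, so 3 of the 8 S phase genes could be read. An E2F word stood in 2.16% of the 27018 genes with a window. Among the replication licensing genes it stood in 6 of 18, among the G1/S control genes in 8 of 25 and among the nucleotide supply genes in 0 of 19. Such a match describes the letters of the window and shows no binding.

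Depth and cell quality differed between the libraries. In the order control 1, control 2, CKO 1 and CKO 2, which is kept throughout, the libraries held 21351661, 14998150, 27138010 and 33709450 UMIs, and the median kept cell had 2734, 2122, 5352 and 5544 UMIs. The median S phase precursor had 8568, 4669, 15125 and 13380.5 UMIs, and the members together gave 1659476, 266829, 1667574 and 4046111 UMIs. Control library 2 thus rested on the fewest and shallowest members. A deeper cell reaches the S phase minimum of the rule more easily but also exceeds its G2/M maximum more easily, so depth can move the number of members either way. Among kept cells 18 barcodes occurred in 2 or more libraries, of which 1 belonged to a member. Doublets were kept in the main analysis, and calls made without the cells of highest simulated-doublet score are given with the limits.

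At the edge of the rule, 117 members had a sum of exactly 5 S phase UMIs and 189 otherwise eligible cells had 4. Mcm3, a helicase subunit outside the rule, stood at 39.6, 111, 44.0 and 84.2 CPM (UMIs of a gene in 1000000 UMIs of the group of cells) just inside and at 35.0, 76.6, 31.7 and 66.3 CPM just outside. For Mcm3, cells just inside were higher in each of the 4 libraries, by less than the spread between libraries. Mcm4 and Hells were also higher inside in all 4. In control library 2, where 6 cells were just inside, Mcm2 stood at 111 CPM inside and 140 CPM outside, and the rule gene Atoh1 at 111 and 166 CPM. Top2a was lower inside in CKO library 1.

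Levels of lineage genes that the rule did not use describe the members and do not separate them from other cells. Of 27 granule cell precursor factors at 10 CPM or more, 5 were higher than in other kept cells in all 4 libraries and 11 lower. Over all genes at that level, 22.1% were higher and 25.1% lower. Zic1, a zinc finger factor of the granule lineage, stood at 772, 813, 621 and 936 CPM in the members, Zic2 at 265, 259, 309 and 253 CPM, and the homeobox gene Meis1 at 439, 558, 472 and 461 CPM. These 3 genes were present at like levels in every library. Insm1, a factor of neuronal progenitors, stood at 434, 427, 492 and 324 CPM.

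Tlx3, a homeobox gene of early granule cells, was uneven, at 108, 0, 48.6 and 78.1 CPM, and no UMI in the control 2 members allows up to 11.2 CPM there. Neurod1, which granule cells switch on as they differentiate, was lowest in the same library, at 298, 109, 230 and 349 CPM. Markers of other cell types differed in level. The 15 ventricular and glial progenitor markers summed to 1053, 761, 1506 and 1087 CPM, most of it Vim, an intermediate filament gene, at 707, 495, 1102 and 787 CPM. Of the 7 at 10 CPM or more, 4 were higher and 0 lower in members than in lineage cells with few S phase counts in all 4 libraries. The shares over all genes at that level were 28.0% and 31.6%. Sox2, a progenitor factor, stood at 30.1, 56.2, 34.2 and 37.8 CPM. The 16 markers of excitatory cerebellar nuclei summed to between 205 and 356 CPM, of which 33.1 to 131 CPM were Meis2, which the rule limits. The 16 immune and vascular markers summed to between 0 and 3.95 CPM, and the GABAergic lineage markers, of which 15 were in the files, to 46.4, 52.5, 42.0 and 38.3 CPM. Among the latter Ptf1a, Skor2, Dlx2 and Gata3 were at 0 in all 4 libraries. Erythroid markers summed to 16.3, 356, 7.20 and 1.48 CPM, highest in control library 2. Their part in any result below was not tested.

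By captured counts, the members were mainly cells rich in helicase and clamp transcripts. How completely the 3′ assay captured histone transcripts was not tested. Pcna supplied 29.4% of their S phase UMIs, Mcm6 28.3% and Mcm5 11.5%, against 13.6% for the linker histone gene Hist1h1b, 9.51% for Hist1h2ap, 3.42% for Hist1h2ae, 1.85% for Hist1h1a and 2.34% for Esco2, the cohesin acetyltransferase. Of the 614 members, 186 had no UMI of any of the 4 histone genes.

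For comparison, 4005 lineage cells had few S phase counts (at most 1 S phase and at most 2 G2/M UMIs), and 1580 lineage cells were dividing (at least 5 G2/M UMIs). The 8 genes of the rule summed to 1095, 1941, 874 and 1062 CPM in the members, and to between 2183 and 3351 CPM in the dividing cells. Mcm5, Mcm6 and Pcna were higher in members than in dividing cells in all 4 libraries, while the 4 histone genes and Esco2 were lower in all 4. These genes chose the cells, so their order is a description of the rule.

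Outside the rule, the genes highest in the members against all other kept cells were again replication genes, where 22.1% of all genes at 10 CPM or more were higher and 25.1% lower in all 4 libraries. Among genes at 50 CPM or more in every library, the 10 with the highest minimum log2 ratio over the 4 libraries included Ung, Mcm3, Mcm4, Hells, Mcm2, Cdca7, Chaf1b, Rpa2 and Hat1. Ung, the uracil-DNA glycosylase that removes uracil from new DNA, stood at 74.1, 105, 86.4 and 63.0 CPM in members. In cells with few S phase counts it stood at 11.3, 2.79, 4.97 and 4.54 CPM, and in dividing cells at 18.4, 12.7, 12.2 and 9.57 CPM. Every library showed the same peak in the members, of 3.87-fold to 7.72-fold over dividing cells, on CPM with 1 added.

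Mcm3 stood at 136, 176, 144 and 147 CPM in members, against 71.8, 77.6, 64.0 and 66.9 CPM in dividing cells and 14.9, 6.97, 8.94 and 16.3 CPM in cells with few S phase counts. The 4 libraries lay close together, and the members did not overlap either other group. Cdc6, which loads the helicase onto origins, stood at 39.2, 63.7, 30.0 and 39.5 CPM in members and at 16.3, 20.3, 11.1 and 13.5 CPM in dividing cells. Hells, a chromatin remodeller needed for DNA methylation, stood at 209, 315, 160 and 212 CPM against 102, 123, 77.8 and 100 CPM in dividing cells, and Cdca7, its partner protein, at 137, 105, 109 and 144 CPM against 75.3, 71.2, 58.0 and 71.9 CPM.

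**Figure D1:**
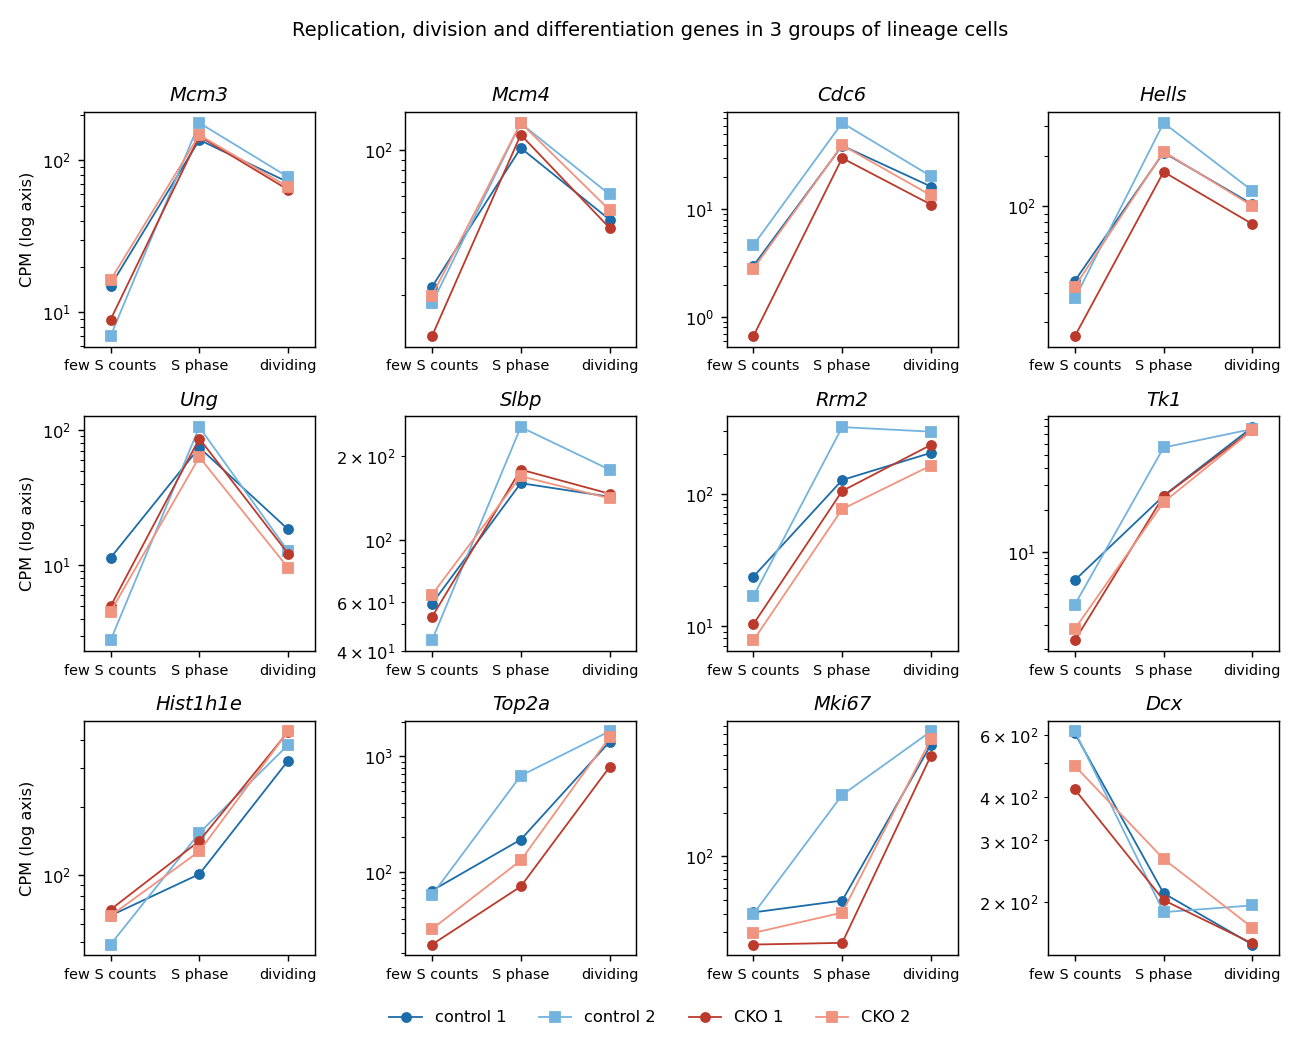
CPM on log axes of 12 genes outside the rule in lineage cells with few S phase counts, S phase precursors and dividing lineage cells, with 1 point per library (2 control, 2 CKO) and lines joining the groups of a library. Mcm3, Mcm4, Cdc6, Hells and Ung were highest in the S phase precursors in all 4 libraries, Top2a and Mki67 in the dividing cells, and Dcx in the cells with few S phase counts.

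Among 8920 genes with a mean of at least 10 CPM in members, 28.0% were higher and 31.6% lower in members than in cells with few S phase counts in all 4 libraries. Of the replication fork genes 32 of 33 were higher in all 4, of the nucleotide supply genes 20 of 20, of the replication licensing genes 18 of 23 and of the S phase checkpoint and repair genes 16 of 18. The rule chose for such genes, so the counts describe only the contrast with cells with few S phase counts, and those against dividing cells are given below. The fork genes include Lig1, the ligase that seals Okazaki fragments, at 336, 364, 146 and 323 CPM in members and 88.1, 44.1, 31.5 and 67.0 CPM in cells with few S phase counts. Dut, which keeps uracil out of the nucleotide pool, stood at 272, 364, 316 and 271 CPM against 78.2, 79.5, 90.4 and 80.1 CPM. Chek1, the kinase of the replication checkpoint, stood at 28.9, 52.5, 33.6 and 34.4 CPM against 6.27, 7.44, 3.31 and 5.87 CPM.

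Genes of G1/S control differed from one another. Ccne2, a cyclin that starts S phase with Cdk2, stood at 74.7, 135, 23.4 and 70.9 CPM in members and 50.1, 34.3, 15.3 and 42.8 CPM in dividing cells. Ccnd2, a D-type cyclin of G1, stood at 1234, 513, 843 and 1889 CPM in members, 701, 323, 530 and 1142 CPM in dividing cells, and 454, 211, 440 and 1000.3 CPM in cells with few S phase counts. Within each library the members were the highest of the 3 groups. Cdkn1c, an inhibitor of cyclin-dependent kinases linked to cell cycle exit, was lower in members, at 39.8, 60.0, 54.0 and 25.0 CPM, than in cells with few S phase counts, at 83.6, 179, 135 and 61.4 CPM.

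Against dividing cells, 23.0% of the 8920 genes were higher and 15.1% lower in members in all 4 libraries. Of 33 replication fork genes 10 were higher and 7 lower in all 4, and of 20 nucleotide supply genes 6 and 2. Of 23 replication licensing genes 8 were higher and 3 lower, and of 18 S phase checkpoint and repair genes 4 and 1. Most genes of these lists thus did not set the members apart from dividing cells. All 40 of the G2/M genes at 10 CPM or more were lower in all 4, in part because the rule excludes cells with more than 2 UMIs of 6 such genes. Tk1, thymidine kinase, belongs to nucleotide supply and yet was lower in members, at 25.3, 56.2, 25.2 and 22.7 CPM against 78.8, 76.3, 75.3 and 74.8 CPM in dividing cells. Hist1h1e, a linker histone gene outside the rule, stood at 101, 154, 142 and 127 CPM against 323, 380, 435 and 437 CPM. The plot of 12 genes over the 3 groups shows both patterns: the helicase genes peaked in the members, whereas Tk1, Hist1h1e, Top2a and Mki67 were higher in the dividing cells.

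Neuronal genes were lower in the members than in cells with few S phase counts, but not lower as a list than in dividing cells. Of 30 neuronal differentiation genes at 10 CPM or more, 26 were lower than in cells with few S phase counts in all 4 libraries, against the 31.6% of all genes. Against dividing cells 6 of the 30 were higher and 4 lower in all 4, beside 23.0% and 15.1% of all genes. The whole list summed to between 10542 and 12522 CPM in members and between 10363 and 14215 CPM in dividing cells. Dcx, a microtubule protein of migrating neurons, stood at 212, 187, 203 and 266 CPM against 606, 614, 419 and 489 CPM. The 5 genes lowest in members against all other cells were Snhg11, Pcsk2, Cacna2d1, Meg3 and Robo3, and Meg3, a long non-coding RNA of neurons, stood at 186, 180, 109 and 142 CPM against 1030, 1172, 448 and 461 CPM. Atoh1, which is part of the rule, was higher in members than in cells with few S phase counts in every library, at 239, 187, 275 and 191 CPM against 74.1, 46.5, 111 and 107 CPM.

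Hedgehog signalling is the main mitogen of granule cell precursors after birth. Ptch1, a hedgehog receptor and target, stood at 54.2, 56.2, 43.2 and 51.2 CPM in members, and Gli1, a sensitive target, had only 3, 0, 2 and 7 UMIs over all members. Mycn, a growth factor-responsive transcription factor of these cells, stood at 119, 60.0, 125 and 107 CPM, and Ccnd1 at 260, 180, 213 and 245 CPM. Of 16 hedgehog pathway genes at 10 CPM or more, 9 were higher and 3 lower in members than in cells with few S phase counts in all 4 libraries, beside 28.0% and 31.6% of all genes.

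In captured counts, the members themselves spanned a range from cells with helicase and clamp transcripts alone to cells dominated by histone transcripts. The 4 histone genes outnumbered Mcm5, Mcm6 and Pcna in 96 members, Mcm5, Mcm6 and Pcna outnumbered the histones in 506, and 12 had equal sums. The histone-led cells were 37 of 157, 12 of 45, 11 of 114 and 36 of 298, or 23.6%, 26.7%, 9.65% and 12.1% (95% Wilson intervals 17.6% to 30.8%, 16.0% to 41.0%, 5.47% to 16.5% and 8.86% to 16.3%, counting error only). Their median depth was 3091, 2837.5, 4926 and 10803 UMIs, below the 13500.5, 6461, 15201 and 13504.5 UMIs of the other kind. Across the members of a library, the Spearman correlation between the histone and the Mcm and Pcna share of a cell's UMIs was -0.01 (157 cells), -0.25 (45 cells), 0.37 (114 cells) and 0.27 (298 cells), all sharing a denominator and a rule, and no common sign appeared.

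**Figure D2:**
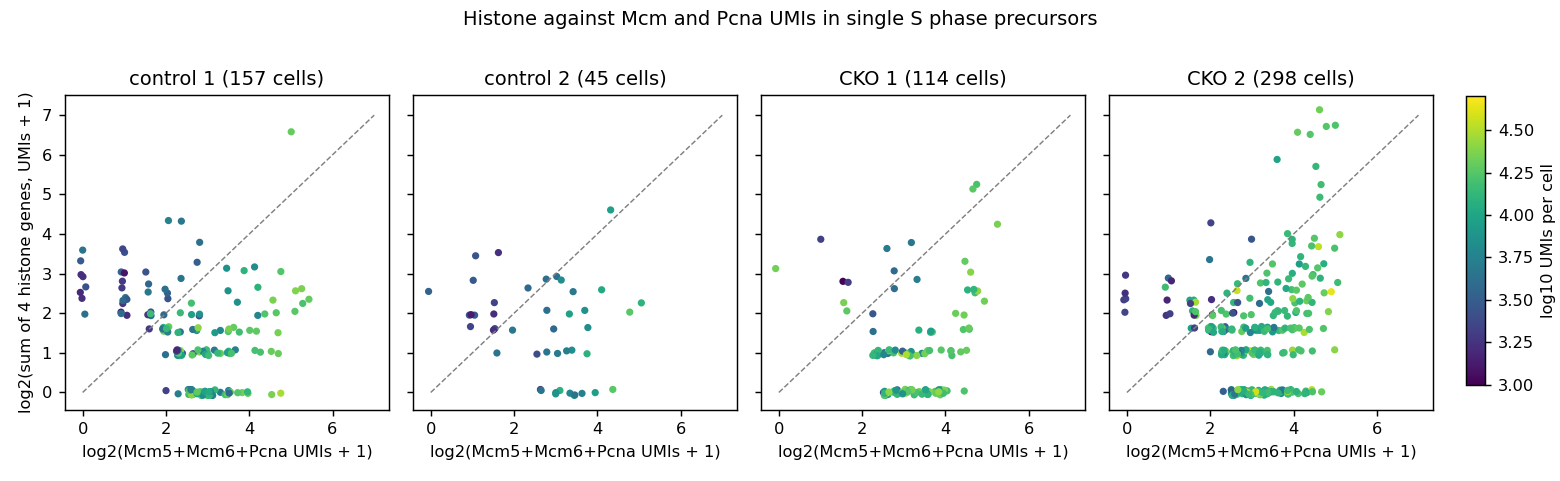
UMIs of the 4 histone genes against UMIs of Mcm5, Mcm6 and Pcna in each S phase precursor, both as log2 of the count plus 1 with a small random offset, in 1 panel per library, coloured by the cell's total UMIs. Points above the dashed line of equal counts are the histone-led cells, 96 in all, and the row of points at 0 holds the 186 members with no histone UMI.

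The 2 kinds of member were compared over a chosen set of genes, with no share over all genes beside it. Top2a, the topoisomerase that untangles replicated chromosomes, stood at 1262, 2492, 430 and 578 CPM in histone-led cells and 89.9, 276, 49.0 and 81.7 CPM in cells led by Mcm5, Mcm6 and Pcna, which is 7.00-fold to 13.9-fold. Rrm2, the regulated subunit of ribonucleotide reductase, stood at 354, 731, 267 and 204 CPM against 106, 230, 93.5 and 64.6 CPM. Mki67, Tyms, Rrm1, Lig1, Ccne2, Cdk1, Ccna2, Hmgb2 and Hist1h1e were also higher in histone-led cells in all 4 libraries, some by little. Cdk1 in control 2 stood at 81.3 against 78.1 CPM, from 3 UMIs in the histone-led cells. Ccne2 in CKO 1 stood at 25.8 against 23.2 CPM, also from 3 UMIs there. Mcm3, Mcm4, Cdca7, Ccnd1 and the rule gene Atoh1 were lower in all 4, with Mcm3 at 85.1, 27.1, 60.2 and 136 CPM against 141, 188, 150 and 149 CPM. In control 2 the histone-led cells held 1 UMI of Mcm3, 1 of Atoh1 and 0 of Cdca7 and Ccnd1. The values rest on few histone-led cells, 12 in control library 2 and 11 in CKO library 1. In every library these cells had a lower median depth than the other kind.

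The first question put to the genotypes was whether loss of the engrailed genes changed how many precursors were in S phase. Members were 5.39%, 1.14%, 5.68% and 8.06% of kept cells. The mean was 3.27% ± 3.004 (SD, n = 2) in controls and 6.87% ± 1.68 (SD, n = 2) in CKO, a difference of 3.60 percentage points. The groups did not overlap, but control 1 and CKO 1 differed by less than the intervals of either, and the two-sided exact permutation test over the 4 libraries gave p = 0.333, the smallest it allows (n = 2 per group). Of the lineage cells, members were 7.49%, 3.53%, 8.47% and 9.40%, with a mean of 5.51% ± 2.80 against 8.94% ± 0.66 (SD, n = 2 each) and the same exact permutation p of 0.333. Without control library 2 the difference was 1.48 percentage points of kept cells and 1.45 of lineage cells, and without control library 1 it was 5.73 and 5.40.

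These shares moved with the depth of the cells. With every cell thinned to 3000 UMIs and shallower cells left out, members were 7.55% of 1006, 7.92% of 404, 9.41% of 946 and 8.36% of 1925 lineage cells. With 5000 UMIs they were 11.2% of 589, 12.2% of 156, 7.04% of 810 and 9.71% of 1781, and both CKO libraries then lay below both controls. Among deep cells of low mitochondrial content (4000 UMIs or more, 5% mitochondrial UMIs or less) the shares of lineage cells were 17.8%, 13.3%, 11.3% and 14.4%, and the groups overlapped. The direction of the difference in share was therefore not the same at every depth. Set against dividing cells instead, there were 57.5, 31.3, 25.4 and 41.7 members per 100 dividing lineage cells, and the genotypes overlapped.

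**Figure D3:**
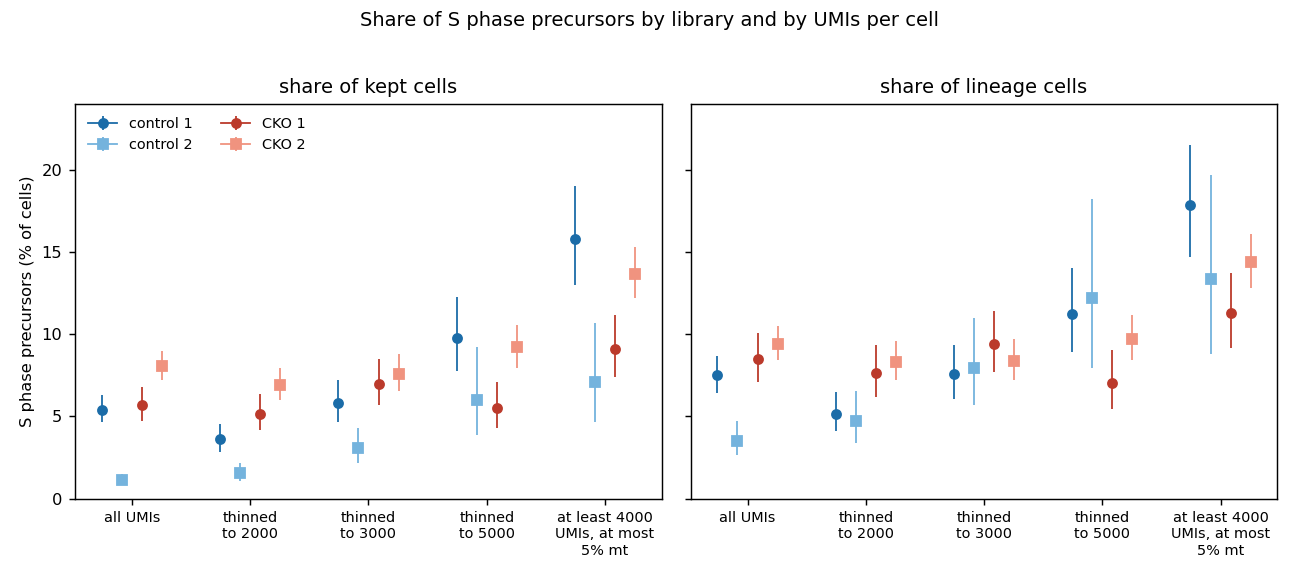
S phase precursors as a percentage of kept cells (left) and of lineage cells (right) in each library, with 95% Wilson intervals, for all UMIs, for cells thinned to 2000, 3000 or 5000 UMIs and for the deep cells of low mitochondrial content. Both CKO libraries lie above both controls with all UMIs, and the order differs at 5000 UMIs.

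The balance between histone-led and other members also depended on depth. The share of histone-led members was 25.1% ± 2.19 in controls and 10.9% ± 1.72 in CKO (SD, n = 2 each) with all UMIs. With members chosen and counted at 3000 UMIs it was 45.1% ± 10.7 and 62.0% ± 1.89 (SD, n = 2 each). At that depth this share reversed, whereas the share of members among kept and lineage cells did not. The exact permutation p was 0.333 each time, and the genotypes did not overlap in either direction. Of the 76, 32, 89 and 161 members found at 3000 UMIs, 42, 21, 31 and 61 were also members with all their UMIs. Thinning only removes UMIs, so with all their UMIs the rest exceeded the G2/M limit or the Meis2 limit of the rule. The set at 3000 UMIs therefore differs from the main set in its cells as well as in depth.

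The second question was which genes changed with the deletion inside the S phase precursors. UMIs were summed over the members of each library and tested with edgeR's quasi-likelihood F test, and a gene is called at a Benjamini-Hochberg adjusted p under 0.05. En2 was the single gene called among 10219 tested (0.00979%). It had 167, 43, 45 and 60 UMIs, or 101, 161, 27.0 and 14.8 CPM, which is 131 ± 42.8 CPM in controls and 20.9 ± 8.60 CPM in CKO (SD, n = 2 each). Both CKO libraries lay far below both controls, and En2 (chr5:28165694-28172166, plus strand, GRCm38) fell by 2.56 on the log2 scale (SE 0.32, edgeR adjusted p = 0.00335). DESeq2 also called it. When members were chosen and counted at 3000 UMIs its log2 change was -1.56 (edgeR adjusted p = 0.297, within a range of 7.15e-14 to 0.297 over 17 alternatives), and 0 genes were called of 4805, with 348 at an unadjusted p under 0.05. The number called also moved when a library was left out, which leaves 1 sample in a group that is assumed to vary like the other: it was 68 without control library 1, 16 without control library 2, 14 without CKO library 1 and 56 without CKO library 2, with En2 among the called genes each time.

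En1, the other deleted gene (chr1:120602418-120607992, plus strand), was not called. It stood at 118, 172, 99.5 and 144 CPM, with overlapping groups and a log2 change of -0.10 (SE 0.26, edgeR adjusted p = 1.00). Counts come from the 3′ ends of transcripts, and the labels do not say which part of En1 or En2 lies between the lox sites, so a count of either gene does not by itself measure the deletion. The long non-coding transcript 2610027F03Rik, downstream of En1 on the same strand (chr1:120621740-120690403), stood at 6.03, 7.50, 32.4 and 19.3 CPM from 10, 2, 54 and 78 UMIs. Both CKO libraries were higher, with a log2 change of 2.04 (SE 0.48), but the edgeR adjusted p was 0.394.

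The same changes were present in other lineage cells of the same libraries. In cells with few S phase counts En2 stood at 135, 125, 25.8 and 23.2 CPM (log2 change -2.30, SE 0.18, edgeR adjusted p = 0.00922) and 2610027F03Rik at 8.66, 13.0, 67.2 and 54.1 CPM (2.62, SE 0.27, edgeR adjusted p = 0.0377). These were the 2 genes called there of 11617 (0.0172%). In dividing cells En2 was the 1 gene called of 12421 (0.00805%), at a log2 change of -2.69 (SE 0.27). No difference of the change between members and cells with few S phase counts was called: the edgeR interaction was -0.17 (SE 0.25, adjusted p = 0.894) for En2, and -0.73 (SE 0.53, adjusted p = 0.729) for 2610027F03Rik.

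**Figure D4:**
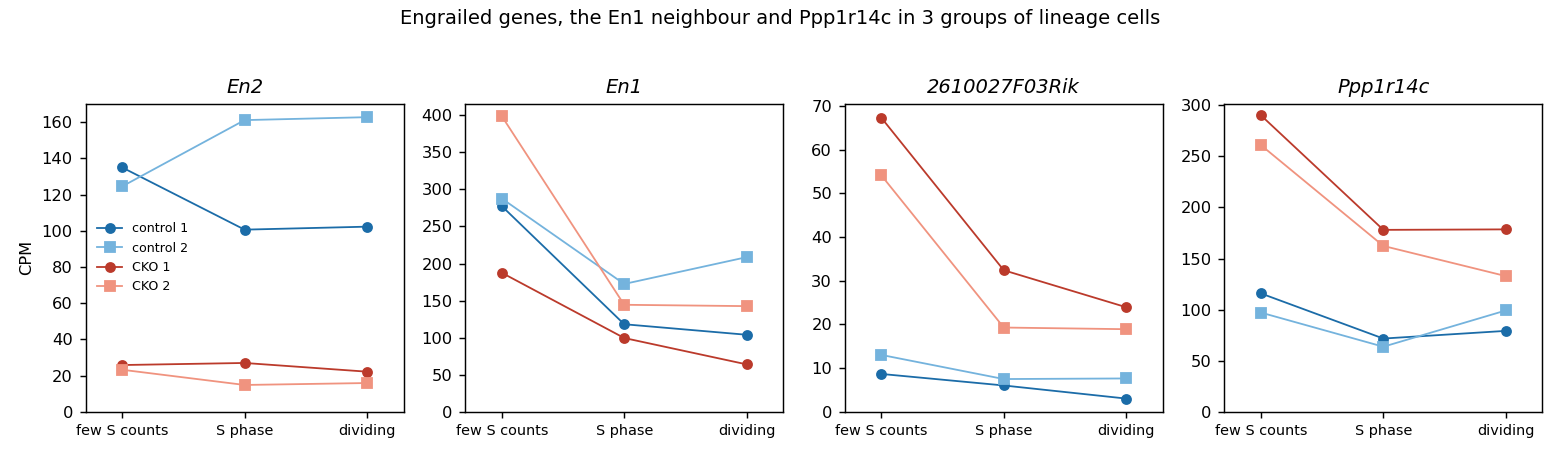
CPM of En2, En1, 2610027F03Rik and Ppp1r14c in lineage cells with few S phase counts, S phase precursors and dividing lineage cells, 1 point per library with lines joining the groups of a library. En2 lies below 30 CPM in every group of both CKO libraries and above 100 CPM in every group of both controls, while En1 overlaps between genotypes.

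Other genes came near the threshold without passing it. At an unadjusted p under 0.05 there were 392 genes (3.84%), 143 higher in CKO (1.40%) and 249 lower (2.44%). Ppp1r14c, an inhibitor subunit of protein phosphatase 1 that was picked after its values had been seen, had the second lowest p. It stood at 71.7, 63.7, 178 and 162 CPM, with a log2 change of 1.36 (SE 0.24, edgeR adjusted p = 0.125). Tle2, a Groucho corepressor of the kind that engrailed proteins can recruit, had 19, 4, 2 and 7 UMIs (11.4, 15.0, 1.20 and 1.73 CPM) and a log2 change of -2.85 (SE 0.59, edgeR adjusted p = 0.268). Ebf1, a factor of early postmitotic neurons, stood at 191, 296, 99.5 and 104 CPM, with a log2 change of -1.13 (SE 0.24, edgeR adjusted p = 0.268). In each of these 3 genes the genotypes did not overlap, which was also so for 35.0% of all 10219 genes tested.

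The replication programme showed no called change. Of the 25 replication licensing genes tested, 0 were higher and 2 lower at an unadjusted p under 0.05, and their median log2 change was -0.04 (-0.20 without control library 1, 0.09 without control library 2), beside -0.0043 over all genes. Among these, Mcm2 stood at 111, 116, 134 and 133 CPM (log2 change 0.31, SE 0.23), with both CKO libraries slightly higher, and Mcm3 had a log2 change of 0.01 (SE 0.23). Ticrr, which helps to fire origins, was the lowest at -1.20 and Gins1, a subunit of the active helicase, the highest at 0.37.

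The 33 replication fork genes had a median log2 change of -0.14, with 3 lower at an unadjusted p under 0.05, led by Top2a at -1.92 (SE 0.41, edgeR adjusted p = 0.268). Top2a stood at 192, 682, 75.6 and 127 CPM, so that the control 2 members were far above the other 3 libraries. The 20 nucleotide supply genes had a median of -0.13, and Rrm2, at 128, 322, 106 and 76.9 CPM, the lowest log2 change (-1.12, SE 0.33, edgeR adjusted p = 0.822). The fork median was -0.39 without control library 1, 0.04 without control library 2 and 0.17 at 3000 UMIs, and the nucleotide supply median -0.09, 0.01 and 0.33. The 18 S phase checkpoint and repair genes had a median of -0.34 with 3 lower at that p, from Brca1, a repair gene, at -1.03 to Msh6, a mismatch repair gene, at 0.29. Their median was -0.82 without control library 1 and -0.05 without control library 2. The 31 G1/S control genes had a median of 0.03, which was -0.30 without control library 1 and 0.15 without control library 2. Ccnd2 was the highest among them (0.69, SE 0.39, edgeR adjusted p = 1.00) and E2f8, an E2F repressor, the lowest (-1.28, SE 0.55).

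The G2/M genes were the list with the lowest median among those tied to the cell cycle. Of 45 tested, 16 were lower and 0 higher at an unadjusted p under 0.05, beside 2.44% and 1.40% of all genes, and the median log2 change was -0.74. Mki67, the proliferation marker, stood at 49.4, 266, 25.2 and 40.8 CPM (log2 change -1.83, SE 0.51, edgeR adjusted p = 0.701), again highest in control 2. The median was -0.22 without control library 2 and -1.77 without control library 1. It was -0.63 over the 15 genes tested in members with 4000 to 12000 UMIs, -0.14 among the deep members of low mitochondrial content, and 0.25 when members were chosen and counted at 3000 UMIs. That last set included cells that the rule excludes when all their UMIs are counted. The 6 G2/M genes that the rule limits summed to 82.0, 169, 52.2 and 51.4 CPM in the members, and the part of that limit and of depth in the G2/M values was not tested.

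**Figure D5:**
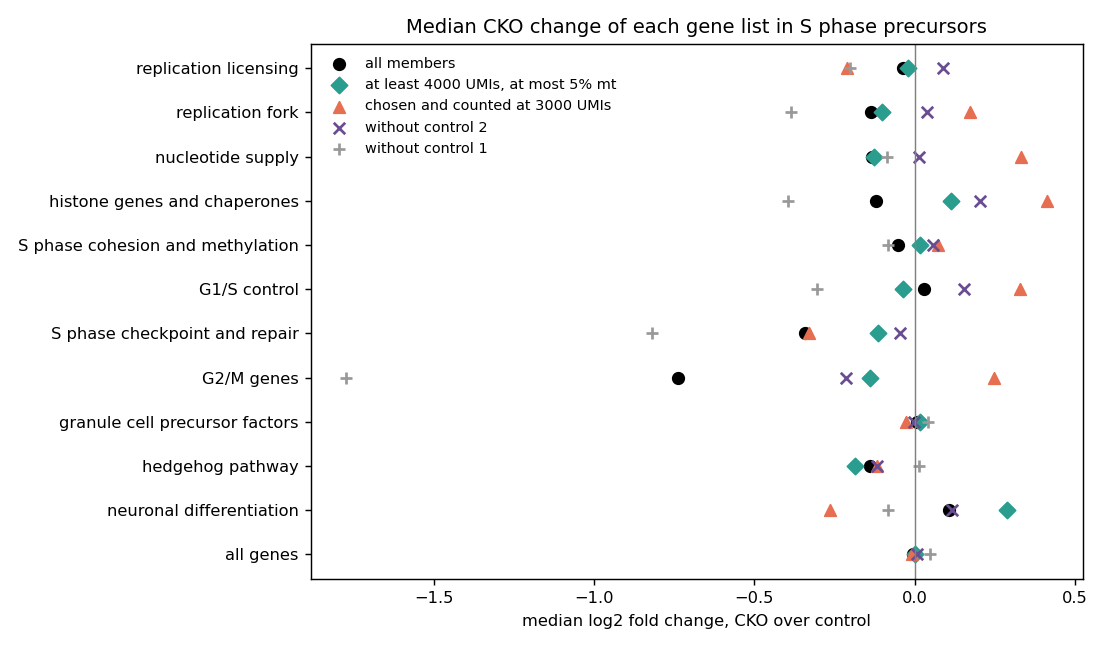
Median log2 fold change (CKO over control) of 11 gene lists and of all tested genes in S phase precursors, for all members, for deep members of low mitochondrial content, for members chosen and counted at 3000 UMIs, and without either control library. The G2/M genes range from -1.77 to 0.25 over these settings, whereas the granule cell precursor factors stay near 0.

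Lineage and signalling genes were also without a call. Of 30 granule cell precursor factors tested, 1 was higher and 2 lower at an unadjusted p under 0.05, and their median log2 change was 0.01. Zic1 changed by 0.05 (SE 0.27), Zic2 by 0.16 (SE 0.22), Meis1 by -0.02 (SE 0.24) and Insm1 by -0.02 (SE 0.25) on the log2 scale, each less than its SE. The 18 hedgehog pathway genes had a median of -0.14 (0.01 without control library 1) with 0 in either direction at an unadjusted p under 0.05, and Ptch1 changed by -0.14 (SE 0.26). The 30 neuronal differentiation genes had a median of 0.11, with 2 higher and 1 lower at that p, and a median of -0.08 without control library 1 and -0.06 without CKO library 2. Among them Gap43, a growth cone protein, was the highest at 0.82 (SE 0.34), from 1025, 394, 1096 and 1363 CPM, with control 2 the lowest library. Of the 32 genes on the fixed list 30 were tested, and 5 of these (En2, 2610027F03Rik, Mki67, Rrm2 and Ccne2) had an unadjusted p under 0.05.

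The last question was whether the CKO effect in S phase precursors differed from that in lineage cells with few S phase counts, tested in 1 edgeR fit with the library as a block. The difference was called for 122 of 11723 genes (1.04%), 37 with a higher and 85 with a lower CKO effect in members. Ribosomal protein genes made up 37 of the 85, out of 91 tested, and all 37 were lower. Rpl29, the one of them picked by the naming rule, stood at 625, 176, 1052 and 902 CPM in members and 278, 81.3, 813 and 698 CPM in cells with few S phase counts, so that the CKO libraries were higher in both groups and the effect was smaller in members (interaction -0.80, SE 0.15, edgeR adjusted p = 0.00257).

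Fst, which encodes the activin antagonist follistatin, stood at 208, 468, 249 and 190 CPM in members and 82.1, 60.0, 120 and 118 CPM in cells with few S phase counts (interaction -1.09, SE 0.20, edgeR adjusted p = 0.00183). The CKO libraries were above both controls in the second group only. Gpx1, an antioxidant enzyme, stood at 142, 116, 145 and 142 CPM against 62.7, 52.0, 122 and 121 CPM (interaction -0.93, SE 0.19, edgeR adjusted p = 0.00608). Pvalb, a calcium-binding protein gene, was more abundant in members, at 659, 813, 571 and 547 CPM against 161, 90.6, 153 and 205 CPM (interaction -0.81, SE 0.17, edgeR adjusted p = 0.00674). The remaining genes named on this side were Trabd2b, Pbdc1, Clybl, Ift74, Med28 and Smim11.

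On the other side the named genes were Usp20, Fam20c, Scamp5, Rasa3, Mmp24, Nrp1, Pcsk5, C1qtnf4, Cdc25c and Olfr1369-ps1, all of them no higher than 36.8 CPM in the members of every library. Pcsk5, a proprotein convertase, stood at 8.44, 7.50, 13.8 and 17.8 CPM in members and 132, 97.1, 64.3 and 79.0 CPM in cells with few S phase counts (interaction 1.73, SE 0.38, edgeR adjusted p = 0.0112). Its value in the control 2 members lay below the level that no UMI allows there, so it rests on very few UMIs. The same held in those members for Rasa3 (7.50 CPM), Mmp24 (3.75 CPM) and Olfr1369-ps1 (0 CPM), and Scamp5 stood at that level (11.2 CPM). Nrp1, a semaphorin receptor, stood at 7.83, 15.0, 6.60 and 13.1 CPM against 57.0, 70.2, 30.1 and 18.3 CPM (interaction 1.71, SE 0.44, edgeR adjusted p = 0.0311). Of 32 neuronal differentiation genes tested 4 were higher and 1 lower, beside 0.316% and 0.725% of all genes. Olfr1369-ps1 is a pseudogene, so its counts may be shared with related copies.

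The cells with few S phase counts were shallow, with medians of 2253, 1931, 2502 and 2194 UMIs, and 4 haemoglobin genes were among the 122. Hbb-y, an embryonic globin, stood at 561, 3037, 2872 and 0.134 CPM in those cells and at 9.04, 195, 4.20 and 0 CPM in members. The number of genes called was 57 with deep cells of low mitochondrial content only, 3 at 3000 UMIs, 8 without CKO library 1, 5 without CKO library 2 and 387 without control library 2.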

How the data were processed

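Single-cell 3′ RNA sequencing of tdTomato-positive sorted cells gave 4 deposited matrices of raw UMI counts, made with Cell Ranger 5.0.0 per the file headers and the mm10 genome per the submitters' processing notes. The annotation and other settings were not given in the sources used here. Of 23371 deposited barcodes, 12546 had at least 500 genes, 1000 UMIs and at most 10% mitochondrial UMIs. No doublets were removed in the main analysis. As an alternative, Scrublet (scanpy 1.11.5) removed the highest-scoring cells, at 0.8% per 1000 cells.

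Counts were summed over the members of each library and, for levels, divided by the UMIs of that cell set (CPM, computed here from the deposited counts). Genotypes were compared with edgeR 4.0.16 (TMM factors, filterByExpr, quasi-likelihood F test, Benjamini-Hochberg threshold 0.05, limma 3.58.1, R 4.3.3), with DESeq2 1.42.0 as an alternative. The fit was tested on simulated data, with changes placed only in genes of higher counts. It called 51 of 100 genes with a log2 change of 1 in size, 99 of 100 with 2, and 12 of 9769 unchanged genes. A gene without a call may therefore still have changed. The difference of the CKO effect between cell groups was an interaction with library as a block. Shares were compared by exact permutation over the 4 libraries, with 95% Wilson intervals, which cover counting error only. Ratios of levels used a pseudocount of 1 CPM. Depths were matched by thinning to 2000, 3000 or 5000 UMIs. Python 3.11.15, numpy 2.4.6, scipy 1.17.1 and pandas 2.3.3 were used. Coordinates come from GENCODE M21 (GRCm38), which held 32235 of 32285 gene IDs.

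The genes named were a list of 32, at most 10 genes called in either direction, ranked by size of change, at 10 CPM or more and without overlap of the genotypes, the 10 leading and 5 lowest genes of the members, and the extremes of each gene list. One of the leading genes is not reported here. Haemoglobin, mitochondrial, sex-linked and rule genes were not named among the calls. Chek1, Tk1, Hist1h1e, Hbb-y, Vim, Sox2 and Ppp1r14c were added as examples after their values were seen. Members and lists were chosen with earlier results of these data known. The labels do not say that libraries with the same number share a day or batch.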

Additional observations from a re-analysis of the deposited data

Results flagged for a closer look

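The CKO effect differed between S phase precursors and lineage cells with few S phase counts for 122 genes, by the test of that difference in edgeR, and 2 genes of the fixed list were among them. Ccnd1, the G1 cyclin, had a log2 change of 0.07 in members and 0.92 in cells with few S phase counts, each from its own fit, and the joint fit of both groups gave a difference of -0.69 (SE 0.18, edgeR adjusted p = 0.0374). Its levels were 260, 180, 213 and 245 CPM in members and 85.7, 34.9, 88.1 and 124 CPM in the other cells, where both CKO libraries lay above both controls. Dcx had a log2 change of 0.28 in members and -0.32 in cells with few S phase counts, and the joint fit gave a difference of 0.61 (SE 0.16, edgeR adjusted p = 0.0348). Both calls were lost at 3000 UMIs and without either CKO library, and that of Ccnd1 also with library sizes only (edgeR adjusted p = 0.109). The cells with few S phase counts had a median of 1931 to 2502 UMIs, against 4669 to 15125 in members.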

How the results depend on the processing

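The 1 gene called in S phase precursors stayed 1, and stayed En2, under RLE factors, library sizes only, DESeq2, deep cells of low mitochondrial content, cells of 4000 to 12000 UMIs, other S phase minimums (8 and 3), and removal of likely doublets or of the shared barcode. The number was 44 with no filter on low counts, 0 at 3000 UMIs, and 14 to 68 when a library was left out. Same-numbered libraries were not shown to be paired: their deviations correlated at -0.12 over 3627 genes. With the replicate number as a block 43 genes were called, and with the crossed pairing, added after seeing the data, 4. The number of genes whose CKO effect differed between cell groups was 57 in deep cells of low mitochondrial content, 3 at 3000 UMIs and 5 to 387 when a library was left out. The difference in share reversed to -0.54 (kept cells) and -3.32 points (lineage cells) at 5000 UMIs, and to -0.035 and -2.78 in deep cells of low mitochondrial content. The share of histone-led members reversed to 16.9 points at 3000 UMIs. Of 30 fixed genes tested, 21 changed sign in some alternative. Beyond their SE, the log2 change ranged, when a library was left out, from -0.67 to 10.01 for Tlx3 (highest without control library 1, where control 2 has no UMI and the value is no bound), from -0.030 to 1.52 for Ccnd2 (lowest without CKO library 2), from -1.06 to 0.11 for Tyms (highest without control library 2) and from -0.085 to 0.57 for Cntn2 (lowest without control library 1). Mki67 reversed to 0.22 in deep cells of low mitochondrial content. At 3000 UMIs the values were 0.10 for Tyms, 0.065 for Lig1, -0.26 for Dcx and -0.35 for Cntn2, and the differences of the CKO effect -0.10 for Usp20, -0.061 for Nrp1, -1.14 for Cdc25c and 0.18 for Pbdc1. Dcx was at -0.26 with 4000 to 12000 UMIs and -0.11 with an S phase minimum of 3, and Cntn2 at -0.019 with that minimum. The cause of these changes was not tested, and the members at 3000 UMIs included cells that the rule excludes at full depth. Control library 2 gave only 45 members with 266829 UMIs.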

Other observations

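Among S phase precursors, 17 p53 target and apoptosis genes were tested between genotypes, with a median log2 change of 0.19 and 0 in either direction at an unadjusted p under 0.05. The extremes were Aen, an exonuclease gene, at -0.16 and Sesn1, a stress-induced sestrin gene, at 0.84. The 13 Notch pathway genes had a median of 0.10 and likewise 0 in either direction, from Hes5 at -1.22 to Hey1 at 0.34. Of 16 genes induced by dissociation 1 was higher at that p, Fosb at 1.64, and their median was -0.02. None of these genes was called by edgeR.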
